A study of Mus musculus with 6 samples.

Results

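The genes described here encode the machinery that cuts and tails RNA at its 3′ end. They are 34 genes of mouse 3T3 fibroblasts, listed by name: 17 of the cleavage complex, 6 poly(A) polymerases and poly(A)-binding proteins, and 11 Integrator subunits. All 34 were found in the annotation and all 34 had at least 10 reads over the 6 libraries, so that all were among the 19452 genes tested, of 54532 listed. The samples were poly(A)+ RNA-seq libraries of Flp-In 3T3 cells, an established mouse fibroblast line with an integrated recombination site. In 3 SAFB KD libraries, labelled triple KD, siRNAs against Safb (also called Safb1), Safb2 and Sltm had been given together, in a first transfection and a boost a day later. The other 3 libraries came from cells of the same line given a control treatment, whose reagent is not given for these cells in the sources used here. No group has single knockdowns, so the shares of Safb, Safb2 and Sltm in any difference cannot be told apart, and each value is an average over the transfected population.

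A nascent pre-mRNA is cut a short way after its polyadenylation signal, and the new end is then tailed with adenosines. CPSF reads the signal and holds the endonuclease, CstF binds the GU-rich stretch behind the cut, CFIm binds UGUA elements upstream and steers the choice between sites, and CFIIm links cleavage to transcription termination. Integrator is a separate complex with its own endonuclease, which cuts small nuclear RNAs and ends transcription early at many protein-coding genes. SAFB proteins are nuclear RNA-binding proteins that bind adenine-rich, purine-rich sequence, much of it in introns and transposon-derived RNA.

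The sequences shown here are those of the 2 members whose annotated transcript has a single exon, Papolb and Cstf2t, each beside the parent gene it resembles. Papolb encodes a testis poly(A) polymerase and resembles Papola, the general nuclear poly(A) polymerase. Cstf2t, tau CstF-64, resembles Cstf2, which encodes the GU-binding subunit of CstF. The 4 stretches of 150 coding bases, 5′ to 3′ and from GENCODE vM21 transcripts on GRCm38, are the aligned places of each pair with the most GAAGAA in Papolb or in Cstf2, and capitals mark GAAGAA.
Papolb, chr5:142528497-142528646, minus strand: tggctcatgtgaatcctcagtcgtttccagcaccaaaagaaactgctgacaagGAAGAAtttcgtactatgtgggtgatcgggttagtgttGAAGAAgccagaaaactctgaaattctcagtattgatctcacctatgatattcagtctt
Papola, chr12:105818848-105820438 (spliced), plus strand: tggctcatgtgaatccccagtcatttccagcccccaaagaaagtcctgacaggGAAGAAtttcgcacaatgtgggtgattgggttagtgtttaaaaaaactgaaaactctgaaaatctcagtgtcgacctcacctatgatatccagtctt
Cstf2t, chr19:31083078-31083227, plus strand: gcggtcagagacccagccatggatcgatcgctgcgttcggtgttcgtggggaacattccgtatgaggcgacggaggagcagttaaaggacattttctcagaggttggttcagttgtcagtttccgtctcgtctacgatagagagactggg
Cstf2, chrX:134059377-134060969 (spliced), plus strand: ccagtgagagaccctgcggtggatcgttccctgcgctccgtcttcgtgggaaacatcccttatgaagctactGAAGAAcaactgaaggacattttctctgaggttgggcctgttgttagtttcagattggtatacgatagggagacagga

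The copies share part of their sequence, and reads that fit both were not counted for either. Papolb and Papola differed at 20 of the 150 bases shown, and Cstf2t and Cstf2 at 35. Over the aligned coding bases Papolb was 85.2% identical to Papola and 69.1% to Papolg, the third poly(A) polymerase, and Cstf2t was 75.5% identical to Cstf2. The longest identical run was 65 bases for Papolb and Papola, and 16 of the 4190 runs of 50 bases in the Papolb transcript also occurred in that of Papola. Cstf2t and Cstf2 shared no run of 50 bases, and their longest identical run was 26 bases. Reads of identical stretches shared with Papola may have been lost from the count of Papolb.

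GAAGAA is a purine-rich hexamer of the kind SAFB proteins bind, and was searched on the RNA strand only, with overlapping matches counted apart. The coding sequence of Papolb held 3 and that of Papola 8, whereas Cstf2t held 0 and Cstf2 1. The member with the most was Rbbp6, with 22, of which 8 lay within 150 bases. At least 1 match was present in 28 of the 34 members, beside 65.2% of 21747 coding genes, and the median density was 0.707 per kb in the members and 0.868 per kb in all coding genes. The stretch of Papolb shown is its densest, and 24.6% of coding genes held at least 2 matches in their own densest 150 coding bases. These are matches of letters and not mapped binding sites.

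The ends of the transcripts of Papolb and of Radil, the gene that holds it, are shown because both annotated ends hold the canonical signal and lie on chromosome 5. Capitals mark AATAAA in the last 30 annotated bases.
Papolb, chr5:142525838-142525867, minus strand: aAATAAAtgccaaacaacctggaactaaaa
Radil, chr5:142484842-142484871, minus strand: tagattcAATAAActatcttttgtattctt
In the last 50 bases of the transcript, on the RNA strand, AATAAA was present in 22 of 34 members, beside 57.4% of coding genes, and AATAAA or ATTAAA in 24 of 34, beside 69.9%.

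Library totals lay between 33323307 and 53441129 counts. The 3 knockdown targets were lower in every SAFB KD library, with log2 fold changes (SAFB KD over control) of -1.01 for Safb, -0.64 for Safb2 and -0.70 for Sltm. At an adjusted p under 0.05, SAFB KD cells showed higher levels of 4156 tested genes and lower levels of 3908 in edgeR's quasi-likelihood test. Fibroblast markers were present but lower in sum, at 17450 to 17920 CPM (counts scaled to a common library total with TMM factors) in SAFB KD libraries and 18830 to 20750 CPM in control libraries, with 7 of 9 genes lower, and Pdgfra and Pdgfrb were both among them. Markers of blood, endothelial and epithelial cells summed to 11.9 to 12.8 CPM in SAFB KD and 10.9 to 11.3 CPM in control libraries. On the second principal component (16.3% of the variance) control replicate 3 stood apart from the other 2 control libraries. In bulk RNA, fewer cells of a type and less RNA per cell cannot be told apart.

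Among the 34 members, 12 were higher, 8 were lower and 14 did not pass the test. The called share of 58.8% stands beside 41.5% of all tested genes (21.4% higher and 20.1% lower), and beside 65.7% where the mean over libraries was 10 CPM or more, a level that 32 of the 34 members reached and at which 59.4% of them were called. The groups did not overlap for 21 of the 34 members, beside 49.0% of all tested genes. With a mean of 10 CPM or more, they did not overlap for 20 of 32 members, beside 6416 of 9082 tested genes. The median log2 fold change was 0.03 for the members and 0.01 for all tested genes. A single member, Papolb, changed beyond 2-fold in edgeR's test against that threshold (glmTreat), which 1.22% of tested genes passed (0.699% in the upward direction). The 19 other called members changed by 5.94% to 23.1%. The split of the calls depended on the scaling and on single libraries. With total counts in place of TMM factors, 7 members were higher and 10 lower. Without control replicate 2, 7 were higher and 8 lower, and without SAFB KD replicate 3 or control replicate 3, 8 were higher and 8 lower.

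**Figure D1:**
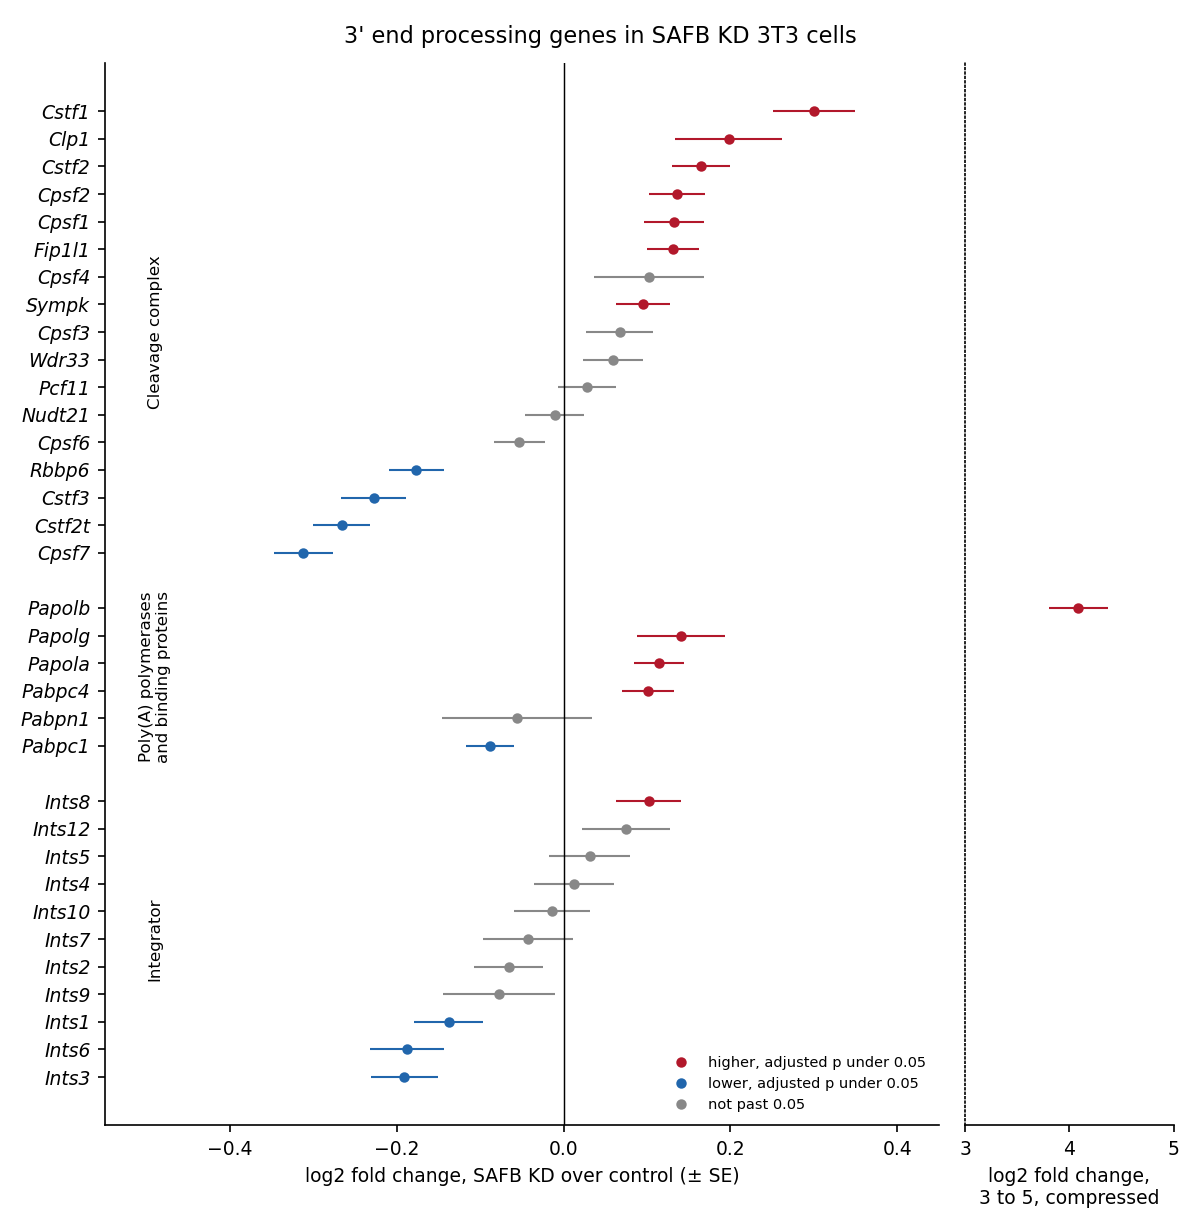
Log2 fold change (SAFB KD over control, horizontal axis) with its standard error for each of the 34 members, grouped by complex. Red and blue points passed an adjusted p of 0.05, grey points did not. Papolb lies at 4.09 in the right panel, whose axis runs from 3 to 5 and is compressed, and every other member lies within 0.32 of 0.

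Papolb was the member that changed most. In mouse it is known as a poly(A) polymerase of spermatogenic cells, where it extends the tails of selected mRNAs. The libraries held 100, 121 and 165 reads of it in SAFB KD cells, or 2.84, 2.81 and 3.15 CPM, against 3, 11 and 6 reads in control cells, or 0.0691, 0.271 and 0.179 CPM. Every SAFB KD library was more than 10 times above every control library. The mean was 2.93 ± 0.186 CPM in SAFB KD and 0.173 ± 0.101 CPM in control cells (SD, n = 3 each), a 17.0-fold difference (log2 4.09, SE 0.28, adjusted p = 1.75e-15, edgeR). Control values rested on few reads: without control replicate 1, the lowest, the log2 fold change was 3.66, and without control replicate 2, the highest, it was 4.60.

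The gene stands in an intron of another gene on the same strand. Papolb (ENSMUSG00000074817) is a single exon at chr5:142525838-142530076 on the minus strand of GRCm38, and Radil, which encodes a Rap GTPase interactor with a role in cell adhesion, spans chr5:142484839-142551098. Measured from the start of Radil, Papolb occupies 21.02 to 25.26 kb of a gene of 66.3 kb, within an intron of 33.8 kb. Because gene counts take exonic reads, reads of the intron outside Papolb were not counted for either gene. No exonic base is shared, so that no read within an exon was ambiguous between them. A read or read pair that joins an exon of Radil to Papolb would be counted for neither gene, and such reads were not analysed here.

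**Figure D2:**
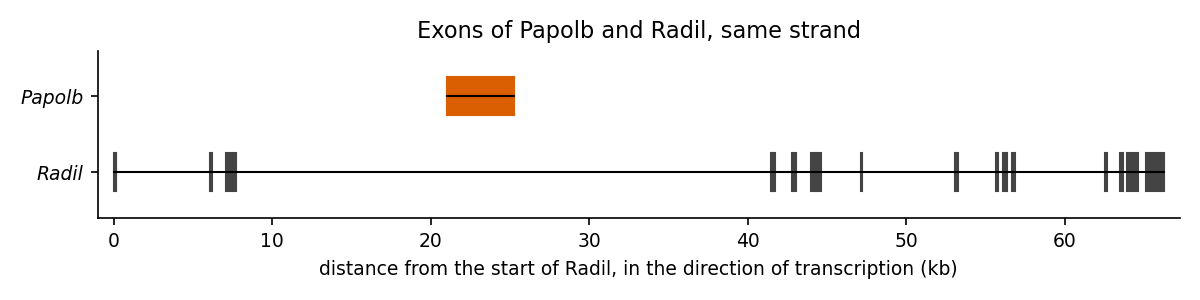
Exons (boxes) of Papolb and Radil along the direction of transcription, with distance from the start of Radil in kb on the horizontal axis. Papolb, a single exon, lies between 21.02 and 25.26 kb, in an intron of Radil that runs from 7.69 to 41.44 kb.

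Radil changed in the opposite direction. It had 32, 71 and 82 reads in SAFB KD libraries (0.909, 1.65 and 1.56 CPM) and 134, 110 and 94 reads in control libraries (3.09, 2.71 and 2.80 CPM). All 3 SAFB KD libraries were below all 3 control libraries, with a log2 fold change of -1.03 (SE 0.18, adjusted p = 8.09e-06, edgeR). The annotated exonic reads of Papolb thus outnumbered those of Radil in every SAFB KD library, and in no control library. Testis germ cell markers, by contrast, did not accompany Papolb: 10 of 13 had under 10 reads in all libraries together, Tnp1, Tnp2, Prm1, Prm2, Acrv1 and Spata18 had 0, and the list summed to 1.86 to 2.57 CPM in SAFB KD and 1.92 to 2.50 CPM in control libraries. Most of that sum was Sycp1, with 270 reads in SAFB KD and 211 in control libraries, which was not called. Reads of the intron around Papolb were not analysed here.

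The other polymerase genes changed little beside it. Papola had 303, 290 and 294 CPM in SAFB KD libraries, against 276, 267 and 277 CPM in control libraries, and rose by 8.23% (log2 0.11, SE 0.03, adjusted p = 0.00196). Papolg, a nuclear polymerase related to Papola, had 32.0, 32.6 and 33 CPM in SAFB KD libraries, against 27.8, 29.1 and 31.9 CPM in control libraries, and rose by 10.3% (log2 0.14, SE 0.053, adjusted p = 0.0294). Neither pair of groups overlapped. Per length, as a share of all length-corrected transcripts (TPM), Papolb made up 1.28%, 1.31% and 1.45% of the summed polymerase transcripts in SAFB KD libraries, against 0.0348%, 0.140% and 0.0881% in control libraries. The shares did not overlap, and an exact permutation test over libraries (2-sided) gave p = 0.1, the smallest it can give with 3 against 3.

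**Figure D3:**
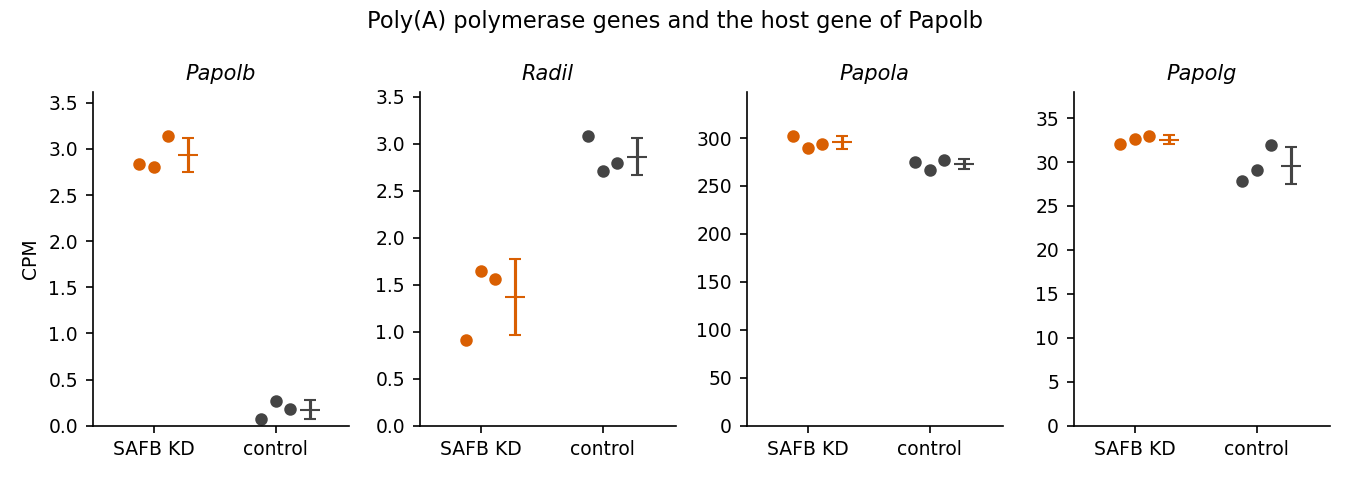
CPM of Papolb, its host gene Radil, Papola and Papolg in each library (points; vertical axes from 0, a separate scale for each gene), with the mean and SD beside them. Papolb stands at 2.81 to 3.15 CPM in SAFB KD and at 0.0691 to 0.271 CPM in control libraries, and Radil is lower in SAFB KD cells.

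Of the poly(A)-binding proteins, the cytoplasmic pair moved apart and the nuclear protein did not pass the test. Pabpc1, the major cytoplasmic poly(A)-binding protein, had 1784, 1809 and 1800 CPM in SAFB KD libraries and 2006, 1906 and 1823 CPM in control libraries, and fell by 5.94% (log2 -0.09, SE 0.029, adjusted p = 0.0132). Pabpc4, a second cytoplasmic paralogue, had 227, 227 and 233 CPM in SAFB KD libraries and 221, 211 and 210 CPM in control libraries, and rose by 7.24% (log2 0.10, SE 0.031, adjusted p = 0.00712). The groups did not overlap for either, although for Pabpc1 the lowest control library, 1823 CPM, lay close to the highest SAFB KD library, 1809 CPM. Pabpn1, which coats the growing tail in the nucleus, had 8.53, 7.80 and 7.84 CPM in SAFB KD libraries and 8.37, 7.61 and 9.14 CPM in control libraries (log2 -0.06, SE 0.09, adjusted p = 0.678). Its exons share 651 bases with the same-strand read-through gene model Gm20521, and reads there count for neither gene.

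Of the 6 polymerase and binding protein genes, 4 were higher and 1 lower, and the groups did not overlap for 5. The called share of 83.3% stands beside 41.5% of all tested genes and 65.7% of those with a mean of 10 CPM or more. The groups did not overlap for 49.0% of all tested genes, and for 6416 of 9082 at that level. Small changes among the 6 leaned on single libraries and on the scaling. Of the 4 members called higher, only Papolb was called with total-count scaling or without control replicate 2, and 2 were called without SAFB KD replicate 3. Papola lost its call without control replicate 2 (adjusted p = 0.0715), Papolg without SAFB KD replicate 2 (0.0738), SAFB KD replicate 3 (0.106), control replicate 1 (0.213) or control replicate 2 (0.140) and in DESeq2 (0.0746), and Pabpc4 without SAFB KD replicate 3 (0.0551), control replicate 2 (0.114) or control replicate 3 (0.0631). Pabpc1 lost its call without control replicate 1 (adjusted p = 0.0746). These adjusted p values, like the others here, are from edgeR unless another tool is named.

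The cleavage complex held calls in both directions: 7 of its 17 genes were higher, 4 were lower and 6 did not pass the test, with a median log2 fold change of 0.07. The groups of libraries did not overlap for 13 of the 17. The called share of 64.7% stands beside 65.7% of genes with a mean of 10 CPM or more, a level that all 17 reached. Of those 9082 genes, 6416 had groups that did not overlap. Genes that were called within CstF, CFIm and RBBP6 included falls, whereas within CPSF 4 of 7 genes rose and 0 fell. The called share of CPSF was 57.1%, and of those 9082 genes 3263 were higher and 2703 lower. The CPSF counts were the same at an unadjusted p under 0.05, in DESeq2 and in limma-voom. Without control replicate 3 the calls of Cpsf1 and Sympk were lost, and that of Sympk also with total-count scaling.

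In CstF all 4 genes passed the test, 2 in each direction, beside 65.7% of genes with a mean of 10 CPM or more. Cstf1, encoding the WD-repeat subunit, had 43.0, 42.8 and 47.6 CPM in SAFB KD libraries, against 35.8, 37.9 and 34.8 CPM in control libraries, and rose by 23.1% (log2 0.30, SE 0.049, adjusted p = 2.66e-06). Cstf2 had 102, 99.1 and 102 CPM in SAFB KD libraries, against 87.7, 91.8 and 91.7 CPM in control libraries, and rose by 12.1% (log2 0.17, SE 0.035, adjusted p = 1.21e-04). The SAFB KD libraries lay above all control libraries for both. In the other direction, Cstf2t had 96.5, 91.3 and 91.2 CPM in SAFB KD libraries, against 113, 112 and 110 CPM in control libraries, and fell by 16.8% (log2 -0.27, SE 0.034, adjusted p = 2.28e-08). Cstf3, the scaffold subunit that binds the RNA-binding subunit, had 59.7, 58.7 and 61.1 CPM in SAFB KD libraries, against 67.4, 69.8 and 73.3 CPM in control libraries, and fell by 14.6% (log2 -0.23, SE 0.039, adjusted p = 6.91e-06). For these too the groups did not overlap.

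The balance of the paralogues Cstf2t and Cstf2 was therefore lower in SAFB KD cells. Per length, the ratio of Cstf2t to Cstf2 was 2.04, 2 and 1.93 in SAFB KD libraries, against 2.78, 2.65 and 2.61 in control libraries. The length is that of all annotated exons merged, 4233 bases for Cstf2t and 9180 for Cstf2. The Cstf2 transcript used for the sequences has 4502 bases. The level of the ratio depends on this choice, and the relative difference between the groups does not. Without length correction the control means were 112 CPM for Cstf2t and 90.4 CPM for Cstf2. A ratio within a library does not depend on the scaling between libraries, and the means of 1.99 ± 0.0558 in SAFB KD and 2.68 ± 0.0911 in control cells (SD, n = 3 each) did not overlap. The exact permutation test gave p = 0.1, which is the smallest possible here.

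Cstf2t, at chr19:31082837-31087069 on the plus strand, lies in an intron of Prkg1, a gene for the cyclic GMP-dependent protein kinase, which runs on the opposite strand. Prkg1 had 1.99, 1.95 and 2.25 CPM in SAFB KD libraries, against 5.07, 4.85 and 5.63 CPM in control libraries, and was lower by log2 -1.32 (SE 0.132, adjusted p = 6.77e-11). Here host and nested gene were both lower, in contrast to Radil and Papolb, and the counts were taken by strand. The only other member inside an intron, Ints2, lies in the antisense gene Brip1os on the opposite strand, which had 71.2, 70.6 and 73.7 CPM in SAFB KD libraries, against 102, 102 and 103 CPM in control libraries (log2 -0.51, SE 0.035, adjusted p = 1.33e-15). The host was lower in all 3 cases, beside 20.1% of all tested genes, and only Radil runs on the strand of its nested gene. Of the nested members Papolb rose, Cstf2t fell and Ints2 did not pass the test.

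In CFIm, in which the UGUA-binding subunit is joined by a larger partner, the fall was in a partner. Cpsf7, the smaller of the partners, had 76.8, 76.0 and 78.8 CPM in SAFB KD libraries, against 95.3, 94.3 and 98.2 CPM in control libraries, and fell by 19.5% (log2 -0.31, SE 0.035, adjusted p = 9.56e-10), the largest fall among the members. Cpsf6, its paralogue, had 152, 154 and 155 CPM in SAFB KD libraries, against 160, 158 and 159 CPM in control libraries (log2 -0.05, SE 0.031, adjusted p = 0.177), and was called lower with total-count scaling (adjusted p = 0.0159). Nudt21, the UGUA-binding subunit, had 84.8, 81.9 and 82.2 CPM in SAFB KD libraries and 84.2, 82.3 and 84.1 CPM in control libraries, which overlapped (log2 -0.01, SE 0.035, adjusted p = 0.852). Per length, the ratio of Cpsf7 to Cpsf6 was 0.830, 0.810 and 0.835 in SAFB KD libraries, against 0.976, 0.978 and 1.01 in control libraries, without overlap (exact permutation p = 0.1, the smallest possible).

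**Figure D4:**
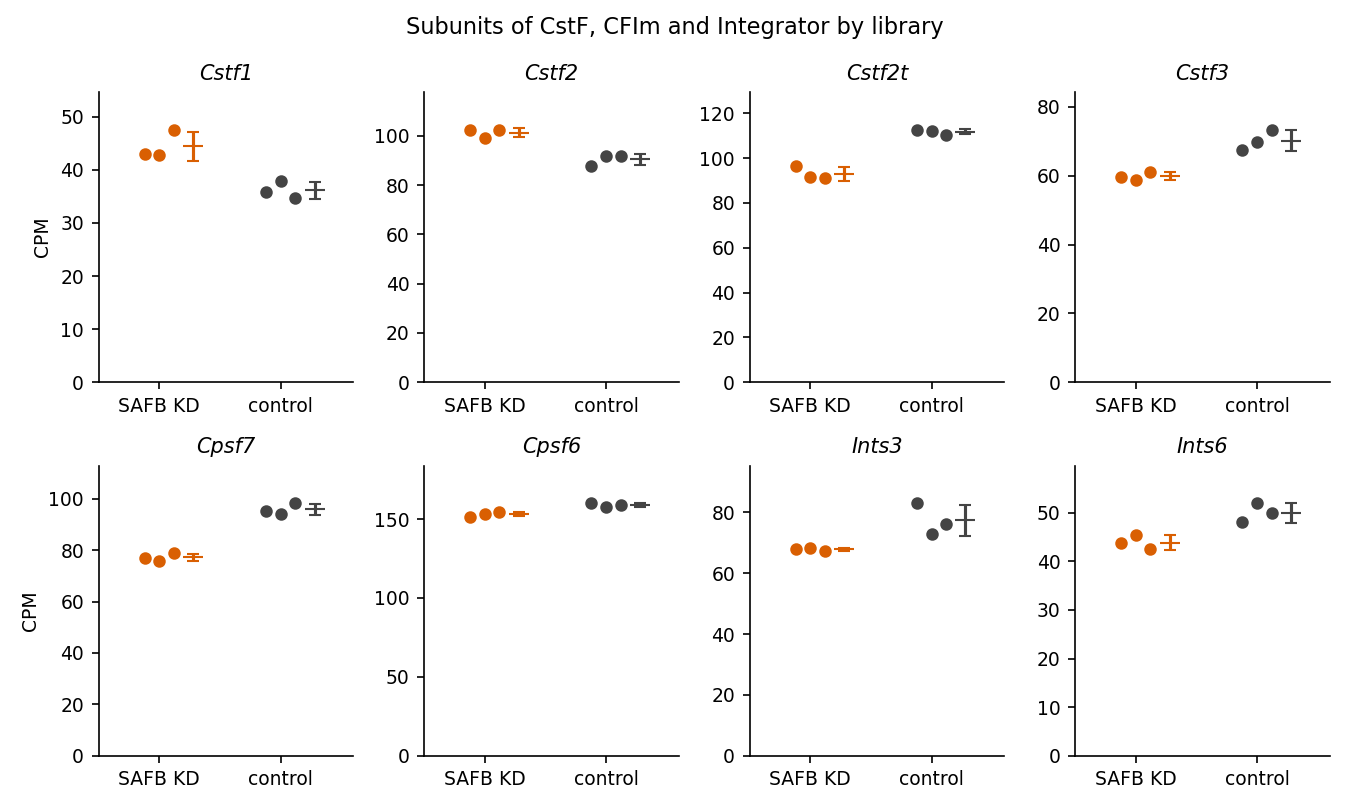
CPM of the 4 CstF genes, the CFIm partners Cpsf7 and Cpsf6, and the Integrator genes Ints3 and Ints6 in each library (points; vertical axes from 0, a separate scale for each gene), with the mean and SD beside them. Cstf1 and Cstf2 are higher in SAFB KD libraries, and Cstf2t, Cstf3, Cpsf7, Ints3 and Ints6 are lower.

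The CPSF genes were all on the upper side by small amounts, with log2 fold changes of 0.06 to 0.14. Cpsf2, the catalytically inactive partner of the endonuclease, had 127, 122 and 124 CPM in SAFB KD libraries, against 111, 111 and 118 CPM in control libraries (log2 0.14, SE 0.034, adjusted p = 0.00115). Cpsf1, the large scaffold, had 97.5, 96.7 and 95.3 CPM in SAFB KD libraries, against 91.1, 89.3 and 83.4 CPM in control libraries (log2 0.13, SE 0.036, adjusted p = 0.00265). Both rose without overlap of the groups, and Cpsf1 lost its call without control replicate 3 (adjusted p = 0.0721). Fip1l1, which brings the polymerase to the complex, had 186, 190 and 193 CPM in SAFB KD libraries, against 173, 171 and 176 CPM in control libraries (log2 0.13, SE 0.031, adjusted p = 5.48e-04), and rose. Sympk, the scaffold symplekin, had 159, 153 and 158 CPM in SAFB KD libraries, against 151, 145 and 144 CPM in control libraries (log2 0.10, SE 0.032, adjusted p = 0.0146). The call of Sympk was lost without SAFB KD replicate 1 (adjusted p = 0.057), SAFB KD replicate 3 (0.0623), control replicate 2 (0.147) or control replicate 3 (0.110), and with total-count scaling (0.193).

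The endonuclease itself was not called. Cpsf3, the nuclease, had 71.9, 70.2 and 73.5 CPM in SAFB KD libraries and 72.9, 67.1 and 65.5 CPM in control libraries (log2 0.07, SE 0.04, adjusted p = 0.185), and passed only without control replicate 1 (log2 0.11, adjusted p = 0.0281). Cpsf4 and Wdr33, whose proteins read the polyadenylation signal, had log2 fold changes of 0.10 (SE 0.066, adjusted p = 0.233) and 0.06 (SE 0.036, adjusted p = 0.205). The groups overlapped for Cpsf3 and Cpsf4 and not for Wdr33.

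Of the remaining cleavage factors, Clp1 rose and Rbbp6 fell. Clp1, an RNA kinase of CFIIm, had 18.1, 18.2 and 18.3 CPM in SAFB KD libraries, against 16.2, 14.9 and 16.5 CPM in control libraries (log2 0.20, SE 0.064, adjusted p = 0.0103), and lost its call without control replicate 2 (adjusted p = 0.115). Pcf11, the CFIIm subunit that binds the tail of RNA polymerase II, had 93.1, 92.4 and 91.5 CPM in SAFB KD libraries and 87.9, 91.3 and 92.5 CPM in control libraries, which overlapped (log2 0.03, SE 0.035, adjusted p = 0.570). Rbbp6, which activates the endonuclease, had 104, 104 and 107 CPM in SAFB KD libraries, against 118, 121 and 118 CPM in control libraries, and fell by 11.5% (log2 -0.18, SE 0.033, adjusted p = 2.21e-05). Of the members with the most GAAGAA, Rbbp6 with 22 fell, Pcf11 with 10 was not called, Papola with 8 rose and Cstf3 with 6 fell, while Ints2, also with 6, was not called. Over the 33 members other than Papolb, the Spearman correlation of the log2 fold change with GAAGAA per kb was 0.19, with control TPM 0.03 and with exonic length -0.21; these describe 33 genes measured in the same 6 libraries.

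Among the 3 member groups, the 11 listed Integrator genes had the smallest changes, with a median log2 fold change of -0.04. Of these, 3 were lower, 1 was higher and 7 did not pass the test. The called share of 36.4% stands beside 65.7% of genes with a mean of 10 CPM or more, a level that all 11 reached. Ints3, which also belongs to a sensor complex for single-stranded DNA, had 67.9, 68.3 and 67.3 CPM in SAFB KD libraries, against 83.0, 73.0 and 76.2 CPM in control libraries, and fell by 12.4% (log2 -0.19, SE 0.04, adjusted p = 1.26e-04). Ints6, a contact of the bound phosphatase PP2A, had 43.8, 45.4 and 42.5 CPM in SAFB KD libraries, against 48.0, 51.9 and 49.9 CPM in control libraries, and fell by 12.2% (log2 -0.19, SE 0.044, adjusted p = 5.81e-04). Ints1, the large scaffold subunit, had 56.8, 54.9 and 57.3 CPM in SAFB KD libraries, against 64.6, 59.8 and 61.5 CPM in control libraries, and fell by 9.15% (log2 -0.14, SE 0.041, adjusted p = 0.00497). For these 3 of the 11 the groups did not overlap, beside 6416 of 9082 tested genes with a mean of 10 CPM or more.

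Ints8, the other PP2A contact, was called higher although its groups overlapped. It had 84.7, 76.8 and 80.4 CPM in SAFB KD libraries and 72.2, 77.7 and 75.2 CPM in control libraries (log2 0.10, SE 0.039, adjusted p = 0.0311). The call was lost with DESeq2 (adjusted p = 0.0911), with RLE factors (0.0525), with total counts (0.221), and without SAFB KD replicate 1 (0.216), SAFB KD replicate 3 (0.075), control replicate 1 (0.203) or control replicate 3 (0.0836). The other 7, Ints2, Ints4, Ints5, Ints7, Ints9, Ints10 and Ints12, had log2 fold changes of -0.08 (Ints9) to 0.07 (Ints12) and overlapping groups. Ints9, which pairs with the Integrator endonuclease, had 16.4, 14.3 and 16.1 CPM in SAFB KD libraries and 16.6, 16.9 and 15.8 CPM in control libraries (adjusted p = 0.391). Ints2, a core subunit, had 66.2, 59.3 and 62.6 CPM in SAFB KD libraries and 64.9, 67.8 and 63.8 CPM in control libraries (adjusted p = 0.218), and was called lower with total-count scaling (adjusted p = 0.0423). Ints5 shares 469 exonic bases with the same-strand gene model Gm49416, and reads there were not counted.

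Of the Integrator subunits and partners outside the 11 members, 7 of 9 were higher and 0 lower, with a median log2 fold change of 0.22. The called share of 77.8% stands beside 65.7% of genes with a mean of 10 CPM or more, a level that all 9 reached. Of those 9082 genes, 3263 were higher and 2703 lower. The counts were the same at an unadjusted p under 0.05 in edgeR, in DESeq2 and in limma-voom. Ints11, the Integrator endonuclease, had 58.2, 59.9 and 60.1 CPM in SAFB KD libraries, against 41.0, 38.5 and 37.3 CPM in control libraries, and rose by 52.4% (log2 0.61, SE 0.044, adjusted p = 7.30e-15). Nabp1, a single-stranded DNA-binding partner of Ints3, had 56.2, 58.4 and 55.0 CPM in SAFB KD libraries, against 35.2, 35.0 and 36.4 CPM in control libraries, and rose by 59.1% (log2 0.67, SE 0.044, adjusted p = 5.10e-16). In neither did the groups overlap. Ints13, of the enhancer-linked module of Integrator, and Ppp2r1a, the scaffold of PP2A, had log2 fold changes of 0.29 and 0.22 and rose as well. The ratio of Ints11 to Ints9 per length, the endonuclease to its inactive partner, was 7.88, 9.31 and 8.28 in SAFB KD libraries, against 5.48, 5.05 and 5.25 in control libraries, without overlap (exact permutation p = 0.1, the smallest possible). Its level depends on the merged exon lengths, 3067 bases for Ints11 and 6814 for Ints9. The 15 Integrator subunits measured, members and others, came to 5 higher, 3 lower and 7 not called.

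**Figure D5:**
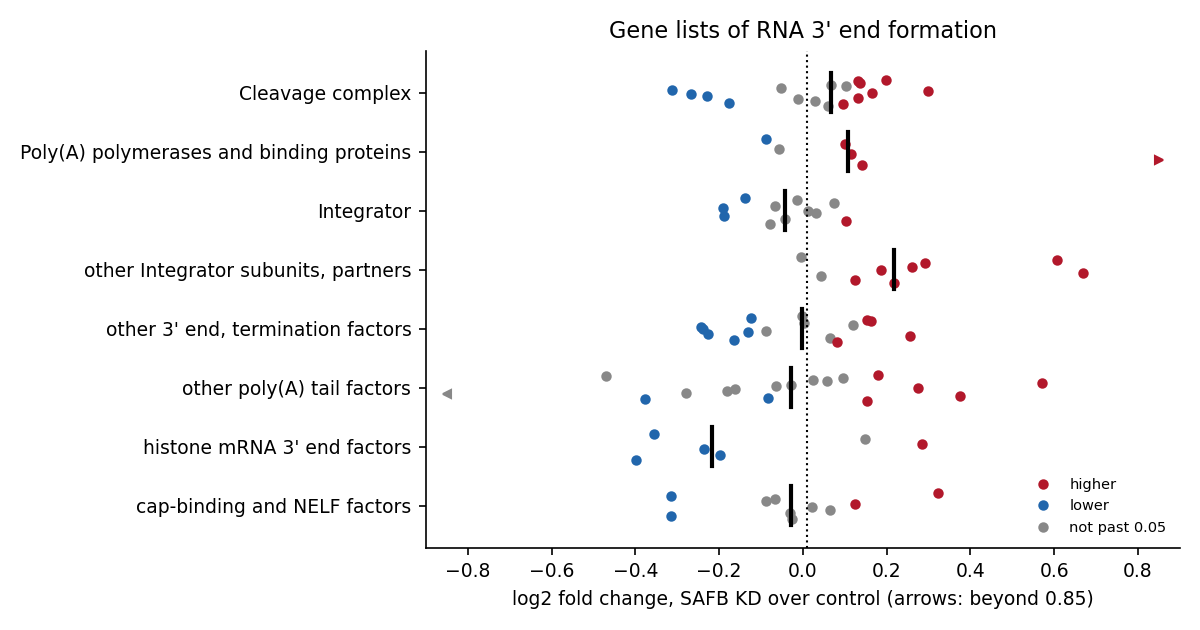
Log2 fold change (SAFB KD over control, horizontal axis) of each tested gene in 3 member groups and 5 other lists of RNA 3′ end formation. Black bars are medians and the dotted line is the median of all tested genes, 0.01. Arrows mark values beyond the axis, and the other Integrator subunits and partners have the highest median among these lists, 0.22.

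Other factors of 3′ end formation and termination had 4 higher and 6 lower of 15 tested, a called share of 66.7%. For comparison, 41.5% of all tested genes were called, and 65.7% of those with a mean of 10 CPM or more. Rprd2 (log2 -0.24, SE 0.04) and Rprd1b (log2 -0.24, SE 0.042), which bind the tail of RNA polymerase II, fell, and Ssu72 (log2 0.26, SE 0.046), a phosphatase of that tail, rose. Of the other poly(A) tail enzymes and binding proteins, 5 of 17 tested were higher and 2 were lower, a called share of 41.2%. Pabpc2, Pabpc5, Pabpc6 and Pabpn1l of that list had no read. Paip2b, which binds and inhibits PABPC1, rose by 48.6% (log2 0.57, SE 0.035, adjusted p = 9.33e-17), as did Tut1 (0.38, SE 0.046), which uridylates U6 snRNA, and Tent4b (0.28, SE 0.038), a nuclear non-canonical poly(A) polymerase. Tut7, a terminal uridylyltransferase of short-tailed mRNAs, fell by 23.1% (-0.38, SE 0.035, adjusted p = 9.83e-12).

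Among the cap-binding and NELF factors, 2 of 10 were higher and 2 were lower, a called share of 40.0%. That stands beside 41.5% of all tested genes and 65.7% of those with a mean of 10 CPM or more. The 2 subunits of the nuclear cap-binding complex were on opposite sides. Ncbp1 averaged 111 ± 0.539 CPM in SAFB KD and 89.2 ± 4.11 CPM in control cells (log2 0.32, SE 0.035, adjusted p = 5.96e-10). Ncbp2 averaged 87.9 ± 3.30 CPM in SAFB KD and 109 ± 2.59 CPM in control cells (log2 -0.32, SE 0.035, adjusted p = 9.97e-10; SD, n = 3 each). Srrt, which encodes the cap complex partner ARS2, fell with Ncbp2 (log2 -0.31, SE 0.034, adjusted p = 5.12e-10), and Nelfb, of the pausing factor NELF, rose (0.13, SE 0.042, adjusted p = 0.0144). Nelfb lost its call with total-count scaling (adjusted p = 0.115) and without SAFB KD replicate 3 (0.0648), control replicate 2 (0.0837) or control replicate 3 (0.150).

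Histone mRNAs are not polyadenylated as a rule. Of 6 factors listed for their 3′ ends and for histone gene expression, 1 was higher and 4 were lower, a called share of 83.3%. That stands beside 41.5% of all tested genes and 65.7% of those with a mean of 10 CPM or more. Casp8ap2, of histone locus bodies, fell by 21.8% (log2 -0.36, SE 0.044, adjusted p = 1.01e-08), Npat, the activator of histone genes, fell by 15.1% (-0.24, SE 0.04, adjusted p = 4.72e-06), and Slbp, which binds the histone stem-loop, fell by 12.8% (-0.20, SE 0.036, adjusted p = 1.71e-05). Lsm11, of the U7 particle, rose by 21.7% (log2 0.28, SE 0.058, adjusted p = 7.90e-05). Of the replication-dependent histone genes, 54 of 70 had enough reads, and 7 were higher and 2 lower. The called share of 16.7% stands beside 41.5% of all tested genes. Of the 7 higher ones, 5 encode linker histones of the Hist1h1 group. Those 5 averaged 0.503 to 39.5 CPM over the libraries, whereas other histone genes tested averaged as little as 0.0439 CPM. Genes with so few reads can seldom be called. Of the U snRNA genes, 4 of 11 were tested and 0 were called in edgeR, DESeq2 or limma-voom, with 0 at an unadjusted p under 0.05, and a poly(A)+ library holds such RNAs only in part.

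The members differed widely in level. By TPM in control cells, used here for order only, Pabpc1 stood first at 978 ± 77.9, followed by Pabpc4 at 178 ± 10.4, Papola at 138 ± 4.84 and Cstf2t at 88.2 ± 3.67 (SD, n = 3). Each of these was apart from the next beyond its spread, as was Cpsf2 at 66.0 ± 1.12. From Cpsf1 (52.2 ± 4.01) to Cpsf3 (43.4 ± 3.79), neighbours in the order lay within their spreads. At the low end came Ints6 (9.93 ± 0.383), Pabpn1 (9.21 ± 0.715), Ints9 (8.07 ± 0.498) and Papolb (0.136 ± 0.0789). Papolb stayed the lowest of the 34 in SAFB KD cells, at 2.18 TPM. The order depends on the length used, which merges all annotated exons of a gene and can exceed that of its transcript.

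Of 13 genes annotated inside introns of 10 members, 9 were tested and 0 were called in edgeR, DESeq2 or limma-voom, with 1 at an unadjusted p under 0.05 in edgeR, and the highest count of any in a library was 35. They were Gm25821 in Cpsf3, Gm43747 in Fip1l1, Gm15549 in Ints10, Gm37349 in Ints7, Gm25788, Gm22154 and Gm12900 in Pabpc4, Gm20274 in Rbbp6 and Gm6665 in Wdr33. The nearest to a call was Gm43747, with 0.540, 0.418 and 0.496 CPM in SAFB KD libraries and 0.807, 0.689 and 0.953 CPM in control libraries (log2 -0.75, SE 0.309, adjusted p = 0.0502), which was called lower under 4 other scalings or filters and without control replicate 2 (adjusted p = 0.0436). At these read counts a rise or fall of the nested genes was not resolved.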

How the data were processed

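Poly(A)+ RNA of Flp-In 3T3 cells was selected in repeated rounds and made into strand-specific libraries, 3 with knockdown of Safb, Safb2 and Sltm and 3 controls, which the series text calls biological replicates. The deposited values were whole-number counts per gene made by the authors from reads mapped with STAR 2.7.9a to GRCm38 (mm10) in a 2-pass run with GENCODE gene models. The notes also name deepTools 3.5.1. The STAR gene counter takes uniquely mapped reads on exons and drops those that fall on more than 1 gene, which can lower overlapping and duplicated genes. That the counts are of the sense strand was read from the study's methods. Of 54532 gene identifiers, 54409 matched the GENCODE vM21 annotation used here for names, positions and exonic lengths, and 123 did not.

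Genes with at least 10 reads over the 6 libraries (19452) were fitted with edgeR 4.0.16 (R 4.3.3) by TMM scaling and the quasi-likelihood test, 2-sided, with Benjamini-Hochberg adjustment over all tested genes and a threshold of 0.05. glmTreat against a log2 threshold of 1 gave changes beyond 2-fold. The SE was set to match the quasi-likelihood test and is approximate. Library totals were 33323307 to 53441129 counts, and the biological coefficient of variation was 3.49%. TPM was computed over tested genes from CPM and exonic length, that of all annotated exons of a gene merged. On that scale the median gene was lower in SAFB KD cells (log2 -0.08), so TPM was used for order and ratios within a library only. Alternatives were DESeq2 1.42.0, limma-voom (limma 3.58.1), other scalings and filters, a replicate block, and each library left out. The model was tested on simulated data. Replicate libraries differed beyond sampling noise, so none was merged. Sequences and motifs came from the transcript with the longest coding sequence of each gene, and copies were aligned with Biopython 1.88.

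The members and gene lists were chosen with earlier results of these data known, and support nothing beyond their description. Named in the text are all members, the knockdown targets, genes around or within members, and up to 4 genes of each other list by adjusted p. A gene that this rule would name is not reported here. Subunits of Integrator not in the member list are in those other lists.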

Additional observations from a re-analysis of the deposited data

How the results depend on the processing

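The 20 called members and 14 uncalled ones were recomputed under 14 alternatives. Of the 280 values of called members, 253 kept direction and call, 27 lost the call and none changed sign, and 12 of the 20 members kept it throughout. Papolb kept a log2 fold change of 3.66 to 4.60. Total-count scaling lowered the median log2 value of all genes by 0.04, and cut the members called higher among polymerases and binding proteins to 1, among Integrator to 0 and among cap-binding and NELF factors to 1, with 4 of those lower. DESeq2 called 76 genes higher and 55 lower beyond 2-fold, against 136 and 102 in edgeR, and 0 Integrator members higher, as did RLE factors. It called 1 histone gene lower, as did filterByExpr. Without the read minimum, 1 other poly(A) tail gene was lower. With single libraries left out, polymerase and binding protein members called higher numbered 1 to 4 and lower 0 to 1, Integrator members higher 0 to 1, tail genes lower 1 to 3, cap-binding and NELF genes higher 1 to 2, and histone genes lower 0 to 2.

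Uncalled values near 0 changed sign. With total counts Pcf11 was -0.012, Ints4 -0.028 and Ints5 -0.0094. With libraries left out, Pcf11 lay between -0.00037 and 0.034, Ints4 between -0.0079 and 0.031, Ints5 between -0.0059 and 0.072, Ints10 between -0.053 and 0.0098, Gm37349 between -0.61 and 0.094, Gm22154 between -1.17 and 0.12, Gm12900 between -0.58 and 0.38, Gm20274 between -0.36 and 0.11, and Gm6665 between -0.14 and 0.31. Gm12900 was also -0.017 in DESeq2, -0.13 in limma-voom, -0.028 with total counts and -0.098 with a replicate block. The cause was not tested.

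The replicate numbers did not pair the libraries: deviations of same-numbered libraries correlated at 0.0511, 0.0123 and -0.0019. A replicate block called 4186 genes higher and 3931 lower, and 12 members higher and 8 lower. Depth limits Papolb in control cells, at 3 to 11 reads, and the nested genes.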
